A study of Drosophila melanogaster with 6 samples.

Results

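The 10 Jonah genes described here, Jon25Bi, Jon25Bii, Jon25Biii, Jon44E, Jon65Aiii, Jon65Aiv, Jon66Ci, Jon66Cii, Jon74E and Jon99Fii, were taken by symbol from a table of 17908 genes of Drosophila melanogaster. All 10 were among the 11866 genes with enough reads to test. Larval polyadenylated RNA was sequenced in 6 libraries, 2 for each of 3 genotypes. Mutant larvae were fiomut/fiomut with U6mut/U6+, so they were homozygous for fiomut and carried U6mut over U6+. Rescue larvae were fiomut,[U6+]/fiomut with U6mut/U6+, the mutant genotype with [U6+] added on 1 of the fiomut chromosomes. The labels do not say what [U6+] is or what the fio mutation does. Control larvae were fiomut/cyo and so also carried fiomut, on 1 chromosome over the CyO balancer. The labels call the control wt, and its label names no U6 genotype. As labelled, mutant and control differ by the second fio chromosome, the balancer and the U6 mutation. Whether the control lacks the U6 mutation is not stated. All larvae were grown at room temperature. Larval age, sex and the number of animals per library are not in the labels. Nothing there tells whether replicate libraries are separate cultures, and the p-values therefore cover library-to-library spread that may be technical. The series title names METTL16, an RNA m6A methyltransferase whose known targets include the spliceosomal U6 RNA, and the study asked which genes it affects.

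Jonah genes encode small secreted serine proteases of the chymotrypsin fold that digest dietary protein. They are known as midgut genes of the feeding larva and the adult fly. Such proteases are made as inactive precursors, pass into the gut lumen and cut peptide bonds there with a catalytic serine, beside the trypsins, amylases, maltases and lysozymes of the same tissue. The number and letter of a symbol name the band of the polytene chromosomes where the gene lies. Whole larvae were sequenced, so fewer midgut cells and less RNA per midgut cell cannot be told apart.

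The 10 genes lie at 6 places on 4 chromosome arms, with positions as deposited. The build is not given in the sources used here, but 99.89% of 13631 genes matched by symbol share their start or end with the Ensembl BDGP6 annotation. Jon25Biii (2L, 4949941 to 4950767), Jon25Bii (2L, 4952243 to 4953136) and Jon25Bi (2L, 4954279 to 4955144) stand in a row on the minus strand. Jon65Aiv (3L, 6039155 to 6040135) and Jon65Aiii (3L, 6050757 to 6051690) share the plus strand and are 10621 bases apart. Jon66Ci (3L, 8391540 to 8392377, plus strand) and Jon66Cii (3L, 8392820 to 8393649, minus strand) face each other across 442 bases. Jon74E (3L, 17546739 to 17549127, minus strand) and Jon44E (2R, 8691448 to 8692844, plus strand) stand alone, and Jon99Fii (3R, 30487016 to 30487928, minus strand) lies beside Jon99Fi, a Jonah gene outside the 10. The listed start of Jon74E differs from that in BDGP6, 17548077. In that annotation their coding sequences are alike in length, at 258 to 276 residues. There, 7 have a single exon, while Jon65Aiii, Jon65Aiv and Jon74E have more. Jon44E overlaps CG8586 on the opposite strand, and no strand setting is given in the sources used here, so its counts are uncertain. Related Jonah copies may share reads, and how such reads were counted is not stated.

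Every library held 15983161 to 17847161 counts. The 10 genes together took 2.88 and 3.50% of all counts in the mutant libraries, 0.977 and 0.530% in the rescue libraries, and 0.278 and 0.307% in the control libraries. Summed CPM, counts per 1000000 of the library size scaled by trimmed-mean (TMM) factors, was 28503 and 33763 in mutant, 8900 and 4778 in rescue, and 3391 and 3220 in control. The mutant libraries were thus the highest, and both rescue libraries lay above both controls in this sum. Jon65Aiv supplied 44.0 and 47.8% of the family's counts in mutant, 20.4 and 51.5% in rescue and 30.7 and 42.4% in control. Without it, summed CPM was 15953 and 17618 in mutant, 7087 and 2315 in rescue, and 2351 and 1854 in control. CG7544, the METTL16 gene, had 52 and 25 counts in mutant, 22 and 46 in rescue, and 41 and 35 in control, with no difference detectable at this depth, so it does not check the genotype labels.

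**Figure D1:**
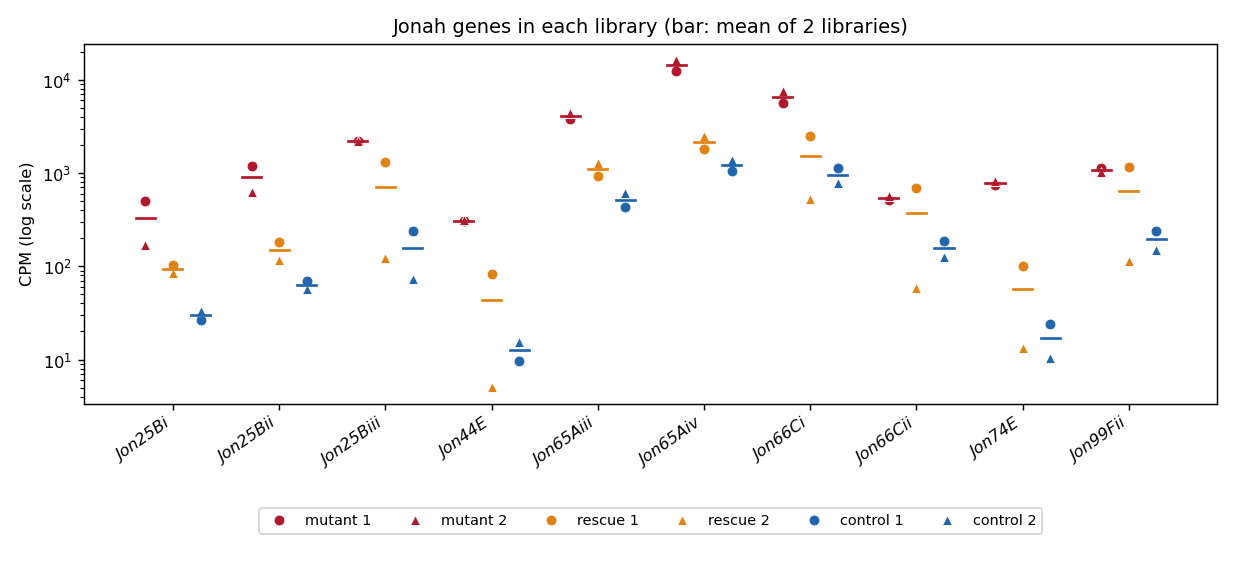
CPM of each of the 10 Jonah genes in each library, on a log scale, with mutant left, rescue in the middle and control right for each gene. Circles are replicate 1, triangles replicate 2 and bars the mean of the 2 libraries. The mutant points lie above the control points for all 10 genes, and the rescue points of 6 genes are far apart.

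The Jonah genes were higher in mutant than in control larvae. In all 10, both mutant libraries exceeded both control libraries, and 8 rose by edgeR's quasi-likelihood test with Benjamini-Hochberg adjustment over all 11866 genes (adjusted p under 0.05). Among all tested genes 9.94% were called higher, and 30.7% had both mutant libraries above both control libraries. The log2 changes of the 10 genes ran from 1.80 to 5.51 with a median of 3.53, beside a median of -0.018 over all genes tested. The mitochondrial large ribosomal RNA, lrRNA, took 4.56 and 3.49% of counts in mutant, 8.22 and 7.40% in rescue, and 11.6 and 8.62% in control. By genotype this is the reverse order of the Jonah sums, but between the replicates of rescue and of control it is not. The part of lrRNA in the result was not tested. None of the 10 was lower by edgeR, by DESeq2 or at an unadjusted p under 0.05 (0 of 10 in each, where edgeR called 7.04% of all genes lower). DESeq2 called 2830 of 11866 genes in either direction.

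Jon65Aiv, the most abundant of the 10 in mutant larvae, had 12549 and 16146 CPM in mutant and 1040 and 1366 CPM in control. It rose 11.9-fold in mean CPM (log2 3.58, SE 0.33, edgeR adjusted p = 0.00104). Its neighbour Jon65Aiii had 3814 and 4368 CPM in mutant and 427 and 610 CPM in control, a log2 change of 2.98 (SE 0.31, edgeR adjusted p = 0.00162). In both of these genes the replicates of a genotype lay close together beside the difference between genotypes.

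At the 25B locus all 3 genes rose. Jon25Bii had 1194 and 620 CPM in mutant and 69.5 and 57.7 CPM in control (log2 3.83, SE 0.41, edgeR adjusted p = 0.00177). Jon25Bi had 495 and 170 CPM in mutant and 26.4 and 33.3 CPM in control (log2 3.48, SE 0.50, edgeR adjusted p = 0.00566). In these neighbours mutant 1 lay above mutant 2, by 1.93-fold in Jon25Bii and 2.92-fold in Jon25Bi, and both stayed far above control. Jon25Biii had 2183 and 2199 CPM in mutant, nearly equal, but 238 and 72.2 CPM in control, 3.30-fold apart. It passed narrowly (log2 3.82, SE 1.06, edgeR adjusted p = 0.0491), and the call was lost without either library of mutant or of control (adjusted p = 0.0550 to 0.160; 0.00364 to 0.160 over the 14 alternatives). It was also lost with RLE scaling (adjusted p = 0.0530) and with limma on log2(FPKM + 1), log2(FPKM + 0.1) or unfiltered FPKM (adjusted p = 0.0529, 0.0551 and 0.0948).

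Jon74E and Jon44E, the members with the lowest levels in control, changed most. Jon74E had 735 and 818 CPM in mutant and 23.7 and 10.4 CPM in control, 45.5-fold higher in mutant (log2 5.51, SE 0.97, edgeR adjusted p = 0.0118). Jon44E had 302 and 314 CPM in mutant and 9.62 and 15.6 CPM in control, 24.5-fold higher in mutant (log2 4.61, SE 1.11, edgeR adjusted p = 0.0321). Neither gene's groups overlapped. The call was lost without mutant 1 or mutant 2 for Jon74E (adjusted p = 0.0672 and 0.0652; 1.52e-05 to 0.0672 over the 14 alternatives). For Jon44E it was lost without mutant 1, mutant 2, control 1 or control 2 (adjusted p = 0.125, 0.120, 0.0965 and 0.0930; 2.26e-04 to 0.125 over the 14 alternatives), and with limma on unfiltered FPKM (0.0705).

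The genes at 66C and 99F changed least. Jon66Ci had 5573 and 7547 CPM in mutant and 1130 and 781 CPM in control and rose (log2 2.78, SE 0.68, edgeR adjusted p = 0.0337). Jon66Cii had 513 and 569 CPM in mutant and 187 and 125 CPM in control, and Jon99Fii had 1144 and 1014 CPM in mutant and 239 and 149 CPM in control. Neither of these passed, with log2 differences of 1.80 (SE 0.91, edgeR adjusted p = 0.210) and 2.48 (SE 0.90, edgeR adjusted p = 0.102), although the groups did not overlap. Both passed when rescue 1 or rescue 2 was left out of the shared fit (adjusted p = 0.00806 and 0.00916 for Jon66Cii, 0.00284 and 0.00319 for Jon99Fii), and when only mutant and control were fitted (adjusted p = 0.00890 and 0.00305). In this last fit all 10 genes were called higher, where 1697 of 11536 genes were called in either direction. Over the 14 alternatives their adjusted p ran from 0.00806 to 0.441 and from 0.00284 to 0.282. The Jon66Ci call was lost without either library of mutant or of control (adjusted p = 0.0638 to 0.142; 9.26e-05 to 0.142 over the 14 alternatives), and with limma on log2(FPKM + 0.1) or unfiltered FPKM (0.0503 and 0.0885). The fit estimates 1 spread per gene from all 6 libraries, and in these genes the rescue libraries were far apart.

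**Figure D2:**
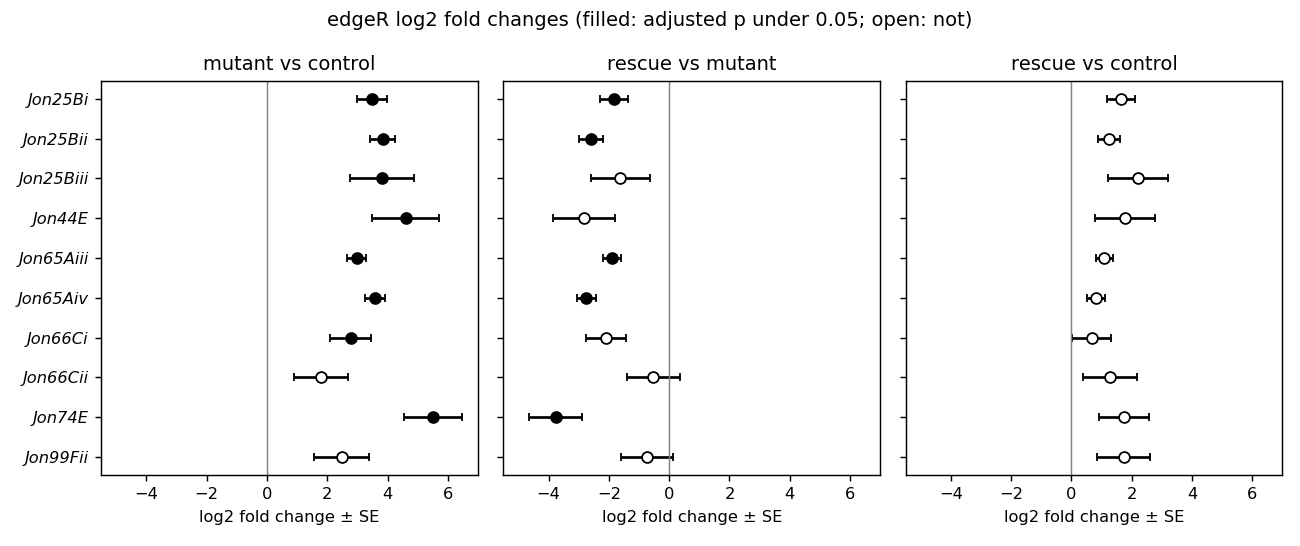
Log2 fold change with its SE from edgeR for each of the 10 Jonah genes in the 3 comparisons. Filled points had an adjusted p under 0.05, open points did not. Of the 10 points 8 are filled to the right of 0 for mutant against control, 5 are filled to the left of 0 for rescue against mutant, and 0 are filled for rescue against control.

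Comparing rescue with mutant larvae asks what differs in animals that carry [U6+]. The 10 genes were lower on average in rescue, and 5 fell by edgeR, against 8.47% of all genes called lower. In 8 of the 10, both rescue libraries lay below both mutant libraries, against 33.1% of all genes. The median log2 difference was -1.999, with a range from -3.77 to -0.52, beside 0.0026 over all genes. None was higher by edgeR, by DESeq2 or at an unadjusted p under 0.05 (0 of 10 in each, where edgeR called 7.61% of all genes higher). DESeq2 called 6 lower, where it called 2734 of 11866 genes in either direction. This comparison uses the same mutant libraries as that of mutant with control.

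Jon65Aiv had 1813 and 2463 CPM in rescue and 12549 and 16146 CPM in mutant (log2 -2.75, SE 0.32, edgeR adjusted p = 0.00333). Jon65Aiii had 934 and 1277 CPM in rescue and 3814 and 4368 CPM in mutant (log2 -1.89, SE 0.30, edgeR adjusted p = 0.00903). Jon25Bii had 183 and 118 CPM in rescue and 1194 and 620 CPM in mutant (log2 -2.59, SE 0.39, edgeR adjusted p = 0.00750). These falls were larger than the differences between replicates. Jon25Bi, at 103 and 84.5 CPM in rescue against 495 and 170 CPM in mutant, fell by 1.83 on the log2 scale (SE 0.47, edgeR adjusted p = 0.0406). Jon74E, at 101 and 13.4 CPM in rescue against 735 and 818 CPM in mutant, fell by 3.77 on the log2 scale (SE 0.89, edgeR adjusted p = 0.0318), with log2 differences of -5.86 without rescue 1 and -2.95 without rescue 2. The calls on Jon65Aiv and Jon25Bii held in all 14 alternatives. The others were lost without some libraries: Jon65Aiii without mutant 1, mutant 2 or rescue 1 (adjusted p = 0.0524, 0.0527 and 0.0577; range 1.11e-09 to 0.0577), and Jon74E without mutant 1 or mutant 2 (adjusted p = 0.127 and 0.118; range 0.00363 to 0.127). The Jon25Bi call was lost when mutant 1, rescue 1 or rescue 2 was left out (adjusted p = 0.118, 0.0985 and 0.166; range 9.29e-04 to 0.166), and also with limma on FPKM (0.0630 to 0.104). Its log2 difference without mutant 1 was -0.86.

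The other 5 members did not pass between rescue and mutant by edgeR, at log2 -2.82 in Jon44E, -2.11 in Jon66Ci, -1.62 in Jon25Biii, -0.75 in Jon99Fii and -0.52 in Jon66Cii (adjusted p = 0.103, 0.0718, 0.284, 0.578 and 0.711). Jon66Ci passed by DESeq2 and with no filter on low counts (adjusted p = 0.00398 and 0.0378; range 0.00398 to 0.229). In each of these genes the rescue libraries were far apart. Jon44E had 82.2 CPM in rescue 1 and 5.02 CPM in rescue 2, from 1442 and 92 counts. That 16.4-fold difference has a counting interval of 13.2 to 20.4 (exact, at 95%), which covers counting error only. Jon66Cii had 694 and 59.1 CPM, Jon25Biii 1302 and 124 CPM, Jon99Fii 1174 and 113 CPM, and Jon66Ci 2515 and 522 CPM in rescue 1 and rescue 2. The difference was 11.7-fold, 10.5-fold, 10.4-fold and 4.82-fold in these 4 genes, and 7.53-fold in Jon74E. In 6 of the 10 genes rescue 1 was therefore at least 4-fold above rescue 2, beside 1.05% of all tested genes, or 125 of 11866, and 0 of the 10 were as far apart the other way, beside 0.371%. In the mutant and control libraries 0 of the 10 genes differed that much between replicates, where the shares of all genes were 0.834 and 0.455% in mutant and 0.986 and 1.60% in control, higher in replicate 1 and in replicate 2. These are single libraries of a genotype, so the difference has no replicate check.

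The 4 remaining genes had close rescue libraries; the split at 4-fold was made after the values were seen. Rescue 1 over rescue 2 was 1.22 in Jon25Bi and 1.55 in Jon25Bii, and 0.731 in Jon65Aiii and 0.736 in Jon65Aiv, where rescue 2 was the higher. These 4 are also the members whose calls between mutant and control held in all 14 alternatives. That is not a separate trait, since the shared fit takes the spread of each gene from the rescue libraries too. With only mutant and control fitted, all 10 genes were called higher in mutant, where 1697 of 11536 genes were called in either direction. Rescue 1 lay between the control and mutant libraries in 8 genes and above both mutant libraries in Jon66Cii and Jon99Fii. Rescue 2 lay below both control libraries in Jon44E, Jon66Ci, Jon66Cii and Jon99Fii, within the control range in Jon25Biii and Jon74E, and between control and mutant in the 4 genes with close libraries. As a percentage of the mutant mean, Jon99Fii stood at 109% in rescue 1 and 10.4% in rescue 2, and Jon44E at 26.7 and 1.63%. Jon65Aiv stood at 12.6 and 17.2% of its mutant mean.

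**Figure D3:**
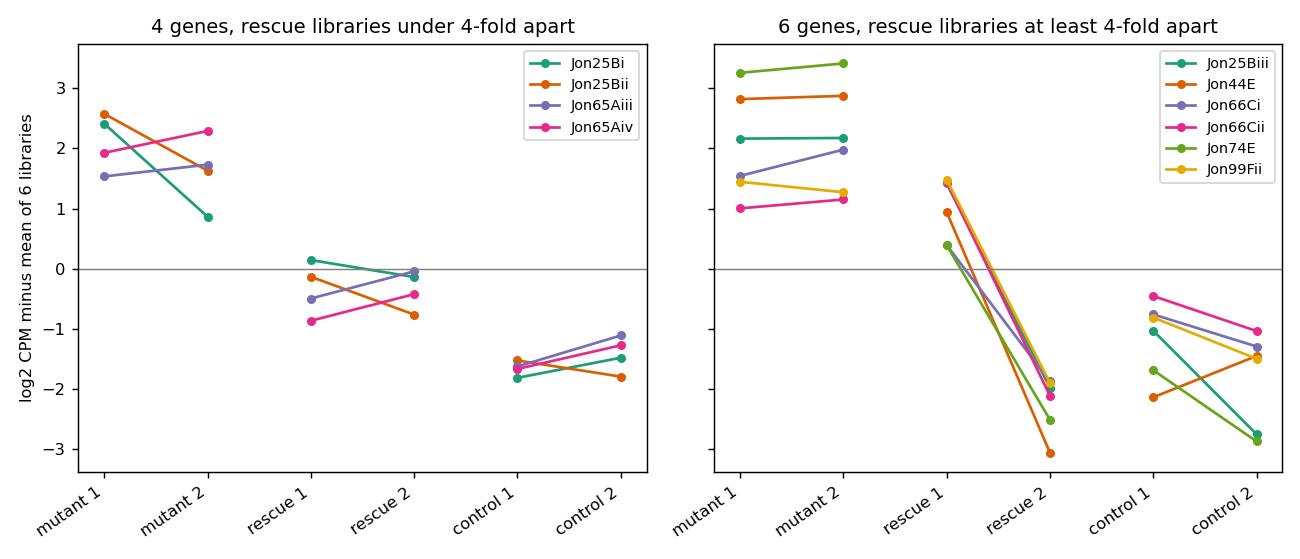
Log2 CPM of each Jonah gene minus its mean over the 6 libraries, with the 4 genes whose rescue libraries were under 4-fold apart on the left and the 6 genes at least 4-fold apart on the right. Lines join the 2 libraries of a genotype. On the right, rescue 2 lies with or below the controls and rescue 1 lies above them. On the left, both rescue libraries lie between control and mutant.

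The differences between rescue and mutant moved with the rescue library left out. Without rescue 1, log2 differences reached values such as -5.93 in Jon44E and -4.15 in Jon25Biii. Without rescue 2, Jon66Cii (0.36) and Jon99Fii (0.12) turned to a higher level in rescue. With 1 rescue library left, its spread is taken from the other genotypes. The counts of calls with 1 library left out are given in a closing section, beside those over all genes.

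The close and the divided genes were neighbours at 2 loci. At 25B, Jon25Bii and Jon25Bi differed little between the rescue libraries, while Jon25Biii, 1475 bases from Jon25Bii on the same strand, differed 10.5-fold. At 65A, Jon65Aiv and Jon65Aiii differed little. Beside them lie Jon65Aii and Jon65Ai, Jonah genes outside the 10, of which Jon65Aii begins 630 bases past the end of Jon65Aiii. Jon65Aii had 266 and 53.1 CPM and Jon65Ai 767 and 150 CPM in rescue 1 and rescue 2, differences of 5.02-fold and 5.11-fold. Large and small differences between the rescue libraries thus stood side by side at both loci.

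**Figure D4:**
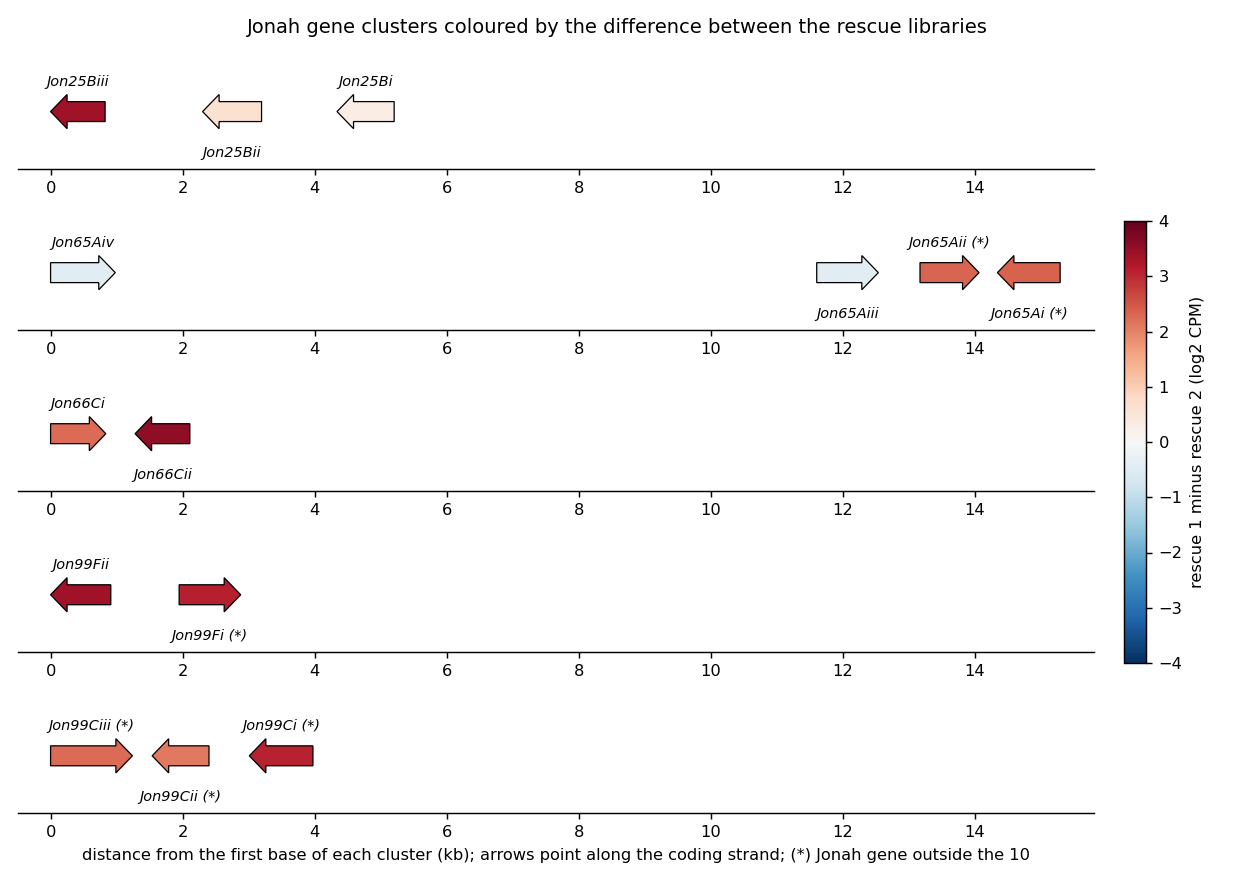
The Jonah genes at 25B, 65A, 66C, 99F and 99C, from top to bottom, as arrows along their coding strand against distance in kb from the first base of each cluster. Colour gives rescue 1 minus rescue 2 in log2 CPM, and an asterisk marks Jonah genes outside the 10. Red genes at 25B and 65A stand beside pale ones.

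As labelled, rescue and control larvae differ in the second fiomut chromosome, the balancer, U6mut and [U6+]. Comparing them gave positive log2 differences for all 10 genes, from 0.67 to 2.20 with a median of 1.46, beside 0.072 over all genes. By edgeR 0 of the 10 passed, where 0.354% of all genes were called higher and 0.287% lower. DESeq2 called 3, where it called 1026 of 11866 genes in either direction. At an unadjusted p under 0.05 in edgeR there were 4, and the share of all genes at that threshold was not computed. Those 4 were Jon25Bi, Jon25Bii, Jon65Aiii and Jon65Aiv, the members in which both rescue libraries lay above both control libraries, a pattern found in 30.7% of all genes. Jon25Bi had 103 and 84.5 CPM in rescue and 26.4 and 33.3 CPM in control (log2 1.65, SE 0.47, edgeR adjusted p = 0.127). Jon65Aiii had 934 and 1277 CPM in rescue and 427 and 610 CPM in control (log2 1.09, SE 0.29, edgeR adjusted p = 0.114). Jon25Bii and Jon65Aiv had log2 differences of 1.24 (SE 0.37) and 0.83 (SE 0.30), with edgeR adjusted p = 0.141 and 0.204. The sign of the other 6 rested on rescue 1, and without it all 6 were negative, from -0.33 in Jon25Biii to -1.40 in Jon66Cii. Without rescue 2, the log2 differences of Jon44E and Jon99Fii were 2.70 and 2.60.

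Levels were compared between genes by the authors' FPKM, which divides counts by gene length. In mutant larvae the order of the 10 by mean FPKM ran from Jon65Aiv (15756 ± 3006, SD, n = 2) over Jon66Ci (7773 ± 1759), Jon65Aiii (4639 ± 507), Jon25Biii (2627 ± 50.2), Jon99Fii (1171 ± 83.6) and Jon25Bii (1003 ± 436) to Jon66Cii (647 ± 55.7), Jon74E (496 ± 44.7), Jon25Bi (379 ± 259) and Jon44E (219 ± 8.90). Neighbours in that order whose difference was within the larger SD were Jon99Fii and Jon25Bii, Jon25Bii and Jon66Cii, Jon74E and Jon25Bi, and Jon25Bi and Jon44E. In rescue larvae Jon65Aiv (2317 ± 496), Jon66Ci (1776 ± 1650) and Jon65Aiii (1238 ± 271) led the 10, and Jon66Ci overlapped both of the others. In control larvae the same genes led the 10, with Jon65Aiv at 1332 ± 224, Jon66Ci at 1147 ± 323 and Jon65Aiii at 593 ± 134 FPKM, and Jon74E (11.1 ± 6.36) and Jon44E (9.003 ± 2.80) stood last. Jon65Aiv and Jon66Ci did not differ beyond their spread there. FPKM of Jon74E divides by a listed length of 1553 bases. Its listed start differs from that in BDGP6, so its place in these orders is uncertain. In mutant larvae Jon65Aiv ranked above 99.98% of the tested genes by mean FPKM, and Jon44E above 96.7%. In control larvae Jon44E ranked above 57.3%.

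The table held 6 further Jonah genes. In mutant against control Jon65Ai and Jon65Aii rose, with log2 changes of 3.14 (SE 0.70, edgeR adjusted p = 0.0247) and 3.78 (SE 0.70, edgeR adjusted p = 0.0146). Jon99Ci, Jon99Cii, Jon99Ciii and Jon99Fi did not pass, at log2 1.26, 1.98, 1.75 and 2.73, and both mutant libraries lay above both control libraries in all 6. Jon99Fi, 1034 bases from Jon99Fii, had 1137 and 606 CPM in mutant, 870 and 100.005 CPM in rescue, and 134 and 128 CPM in control. Rescue 1 was at least 4-fold above rescue 2 in 6 of these 6, from 4.36-fold in Jon99Cii to 8.69-fold in Jon99Fi. Over the whole family 12 of 16 genes were thus among the 125 genes with that difference. Jon99Ci was the exception in level, at 64.8 and 38.9 CPM in mutant and 171 and 19.9 CPM in rescue.

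Other digestive genes were higher in mutant larvae too, where 9.94% of all tested genes were called higher than in control. Of 11 Greek-letter trypsin genes 9 rose, with a median log2 change of 2.42, among them lambdaTry (6.16), alphaTry (5.23), kappaTry (4.19) and zetaTry (1.91). Of 5 tested other gut serine protease genes 4 rose, Phae2 (5.34), Phae1 (3.999), Ser6 (3.26) and yip7 (2.99). Of 13 tested genes of carbohydrate digestion 6 rose, among them the maltase genes Mal-A1 (6.19) and Mal-A2 (3.70), the glucosidase gene tobi (4.28) and the amylase gene Amy-d (5.89), of 7 lysozyme genes LysC (10.78) and LysS (5.14), and of 5 lipase genes mag (3.70) and Lip4 (1.43). None of these lists had a gene called lower, beside 7.04% of all tested genes. LysP did not pass but was lower in mutant, at 2.18 and 6.15 CPM against 18.7 and 28.5 CPM in control (log2 -2.50, edgeR adjusted p = 0.184). Of 3 tested peritrophic matrix genes 2 rose, while Peritrophin-A fell (log2 -1.87, edgeR adjusted p = 0.0205). The rescue libraries differed less in most of these lists. Rescue 1 was at least 4-fold above rescue 2 in 0 of 11 trypsin genes, whose median difference was 0.44 on the log2 CPM scale against 2.59 for the 10 Jonah genes. It was so in Ser6 of 5 other serine protease genes, in Amy-d of 13 carbohydrate genes, in mag and CG8093 of 5 lipase genes, and in LysC, LysE and LysP of 7 lysozyme genes, named after their values were seen. Summed CPM of the trypsins was 1817 and 1892 in rescue 1 and rescue 2. Whether the Jonah genes differ from these lists was not tested, since the rescue libraries are 1 against 1.

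**Figure D5:**
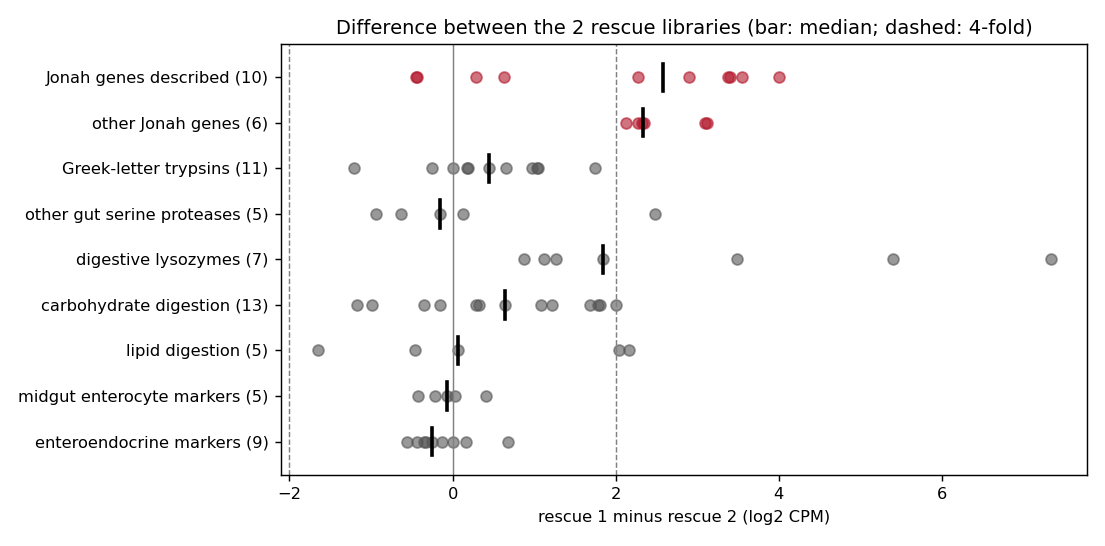
Rescue 1 minus rescue 2 in log2 CPM for each gene of 9 groups, with the number of tested genes in brackets, a black bar for the median and dashed lines at a 4-fold difference. Of 10 Jonah genes 6 lie past the right dashed line, as do all 6 further Jonah genes, beside 0 of 11 trypsins and 0 of 5 enterocyte markers. Past it also lie 3 of 7 lysozymes, 2 of 5 lipid digestion genes, 1 of 13 carbohydrate digestion genes and 1 of 5 other serine proteases.

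Markers of the midgut moved with the Jonah genes between mutant and control, where 9.94% of all tested genes were called higher and 7.04% lower. Of 5 enterocyte markers 4 rose, the transcription factor gene GATAe (log2 3.47), mex1 (3.29), the unconventional myosin gene Myo31DF (1.67) and Mur29B (1.47). The summed CPM of all 5 was 435 and 525 in mutant, 242 and 283 in rescue, and 124 and 141 in control. In this sum the rescue libraries lay between the other genotypes and close to each other. Single markers varied, and 2 of 5 were called lower in rescue than in mutant, beside 8.47% of all tested genes. Mur29B had 78.9 and 82.8 CPM in rescue against 74.9 and 103 CPM in mutant. The marker nub had 22.2 and 25.8 CPM in rescue against 16.6 and 22.2 CPM in mutant. GATAe, a midgut GATA factor, had 37.9 and 56.8 CPM in mutant, 12.9 and 9.72 CPM in rescue, and 3.16 and 5.34 CPM in control. Of 4 markers of the acid-secreting copper cell region lab and Vha100-4 rose (2.53 and 4.51), and of 9 enteroendocrine markers 6 rose and 1 fell. Their part in the Jonah result was not tested.

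Of 16 regulators of digestive enzyme genes 3 rose in mutant against control, beside 9.94% of all tested genes. They were GATAe and lab, which the marker lists also hold, and the caudal homeobox gene cad (0.96, edgeR adjusted p = 0.0393). In rescue against mutant 4 fell, beside 8.47% of all tested genes. These were GATAe (log2 -2.06), lab (-3.05), the sugar-responsive factor gene sug (-1.57) and Mondo (-0.80), which encodes a sugar sensor (edgeR adjusted p = 0.00930, 0.0129, 0.0467 and 0.0361). None passed between rescue and control by edgeR (0 of 16; 3 at an unadjusted p under 0.05). The gene sug had 53.1 and 20.2 CPM in rescue 1 and rescue 2, and none of the 16 differed 4-fold between those libraries (0 of 16).

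Genes of other tissues also differed between genotypes. Salivary gland genes, most of which encode glue proteins made late in larval life, had summed CPM of 408 and 1045 in mutant, 14824 and 14808 in rescue, and 4062 and 11050 in control, with 7 of 10 called lower in mutant than in control. Replicate 1 minus replicate 2 had a median over these 10 genes of -3.18 in mutant, -1.46 in control and 0.34 in rescue (log2 CPM). The sum hides part of this, since ng3 alone held 199 CPM in mutant 1, while Sgs3 had 3.21 and 209 CPM in mutant. Body wall muscle genes summed to 32554 and 33931 CPM in mutant, 20330 and 18357 in rescue, and 84489 and 49358 in control, with 4 of 10 called lower in mutant. Larval epidermis genes summed to 18343 and 15333 CPM in mutant, 42247 and 34313 in rescue, and 77110 and 51062 in control, with 5 of 7 called lower in mutant. Of 7 fat body genes 2 and of 8 tested neuronal genes 4 were called lower in mutant. Over all tested genes 7.04% were called lower in mutant than in control. The part of tissue makeup or larval stage in the Jonah result was not tested. Cuticle protein genes parted the rescue libraries too. Of 79 tested cuticle protein genes, taken by symbol or description after the values were seen, 15 were at least 4-fold higher in rescue 1 and 0 in rescue 2, so they and the 12 Jonah genes are among the same 125 genes. The largest such difference on the epidermis list was in Lcp65Ag1, which had 2.12 and 17.1 CPM in mutant, 128 and 1.15 CPM in rescue, and 609 and 236 CPM in control. Its control libraries were the highest and rescue 2 the lowest, whereas the mutant libraries were above control in all 10 Jonah genes. On the salivary gland list 0 of 10 genes reached 4-fold between the rescue libraries, with ng2 at 1.995 and ng1 at 1.77 on the log2 CPM scale. The part of these differences in the split of the Jonah genes was not tested.

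The genes most like the family were ranked by the root mean square difference of their centred log2 CPM from the median profile of the 10, over 6 libraries and 7105 genes of at least 10 CPM. The closest was Jon65Ai (difference 0.21, r = 0.995). It was followed by Npc1b, a midgut gene needed for sterol uptake (0.32, r = 0.983), CG10472 (0.32, r = 0.990), CG3868 (0.36, r = 0.978), CG15773 (0.37, r = 0.977) and CG33306 (0.37, r = 0.983). The points of each r share libraries, genotype and depth, and r is a description only. CG10472 (3L, 6061372 to 6062910) lies near the 65A genes, past Jon65Ai (3L, 6053493 to 6054443). It had 24840 and 17929 counts in mutant, 6132 and 1055 in rescue, and 1581 and 1331 in control. The 10 genes themselves lay 0.40 (Jon66Ci) to 1.02 (Jon74E) from that profile, and 319 other genes lay closer than Jon74E. The profile stood at 0.39 in rescue 1 and -1.89 in rescue 2. It thus holds the wide rescue difference that Jon25Bi, Jon25Bii, Jon65Aiii and Jon65Aiv lack. Among pairs of the 10, Jon66Cii and Jon99Fii (0.32) and Jon65Aiii and Jon65Aiv (0.36) were closest, while Jon66Cii and Jon74E (1.65) were farthest apart.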

How the data were processed

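Read counts per gene, for 6 larval libraries, are the authors' deposited counts. FPKM values are the authors' as well: tested on the deposited table, they are counts per kb of listed gene length and per 1000000 of a library-specific denominator. The sources used here do not give the aligner, counter, strand setting, build or annotation. No column of values was unmapped (0 unused). Counts were fitted with edgeR 4.0.16 (R 4.3.3): all 6 libraries in 1 quasi-likelihood fit, TMM factors, filterByExpr with a minimum count of 10, and Benjamini-Hochberg adjustment over 11866 genes, called at an adjusted p under 0.05. SE is the absolute log2 change over the square root of F, log2 CPM used a prior count of 2, and the spread had 3 residual degrees of freedom. DESeq2 1.42.0, limma 3.58.1 on log2(FPKM + 1) or log2(FPKM + 0.1), other scaling, filters, groups in the fit, a replicate block and leaving out each library were alternatives, 14 per result. The procedure was tested on simulated data in which every gene had the same spread. That test does not cover genes whose replicates lie far apart, as in the rescue libraries here. All 10 members are described, with every other Jonah gene, up to 4 genes per list by lowest p between mutant and control, called regulators, and the 6 genes most like the family. The members and the 15 gene lists were chosen with earlier results of these data known. Of the listed genes, crys and Cha had no row under those symbols. Of 5 peritrophic matrix genes listed, 3 were tested, and 2 rose and 1 fell in mutant against control. No sequences were used.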

Additional observations from a re-analysis of the deposited data

How the results depend on the processing

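In mutant against control, 8 Jonah genes were called higher, 10 with only the 2 groups in the fit, 5 with limma on log2(FPKM + 1) without a filter, and 4 to 10 when 1 library was left out. The count was 4 without mutant 1 or mutant 2, 5 without control 1 or control 2, and 10 without rescue 1 or rescue 2. All genes called numbered 2015, and 611 to 1930 with 1 library left out. In rescue against mutant, 5 were called lower, and 2 to 8 with 1 library left out. All genes called numbered 1908, and 400 to 2504 with 1 library left out. In rescue against control, 0 were called higher by edgeR, 3 by DESeq2, and 0 to 2 with 1 library left out. All genes called numbered 76, against 1026 by DESeq2, 478 with no filter, 11 with only the 2 groups in the fit, 117 with the replicate block, 16 with limma on FPKM without a filter, and 12 to 778 with 1 library left out. With 1 library left out, log2 values in rescue against mutant reached from -3.19 to 0.36 in Jon66Cii and from -3.26 to 0.12 in Jon99Fii. In rescue against control they reached up to 3.31 in Jon25Biii, 2.70 in Jon44E, 1.40 in Jon66Ci, 2.16 in Jon66Cii, 2.56 in Jon74E and 2.60 in Jon99Fii. Signs turned without rescue 2 for rescue against mutant in Jon66Cii (0.36) and Jon99Fii (0.12). They turned without rescue 1 for rescue against control in Jon25Biii (-0.33), Jon44E (-1.33), Jon66Ci (-0.87), Jon66Cii (-1.40), Jon74E (-0.35) and Jon99Fii (-0.79). Apart from fewer samples, the cause was not tested. With replicate numbers as a block, 8, 5 and 0 Jonah genes were called in the 3 comparisons. Same-numbered libraries correlated by only 0.016 to 0.055 in their deviations. That gives no sign of a shared shift, but it cannot tell whether same-numbered libraries were handled together. With 2 libraries a genotype, differences within the spread of the rescue libraries were not detectable.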

Other observations

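LysC, a digestive lysozyme gene, had 5968 and 6233 counts in mutant, 648 and 2 counts in rescue, and 5 and 1 counts in control. Its rescue libraries thus stood further apart than those of any of the 10 Jonah genes, and rescue 2 lay between the control libraries. LysC was singled out after its values were seen.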
